A study of Mus musculus with 24 samples.

Results

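The genes that build and restrain the proteolysis of the extracellular matrix were followed in RNA-seq libraries of mouse liver cells. The members were chosen by gene symbol alone in both deposited tables and comprise the matrix metalloproteinases (*Mmp*), their tissue inhibitors (*Timp*), the secreted ADAMTS proteases (*Adamts*) and the ADAMTS-like proteins (*Adamtsl*). This gave 51 of 49568 genes, namely 23 *Mmp*, 4 *Timp*, 19 *Adamts* and 5 *Adamtsl* genes. Of these, 44 reached a value of 1 in at least 1 sample of the homeostasis experiment and 47 in the transwell experiment. *Mmp1a* and *Mmp1b* were at 0 in the 12 homeostasis libraries.

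The homeostasis experiment compared ductal cells (DCs) with the cells around the bile ducts in the undamaged liver of 12-week-old mice, heterozygous for the Pdgfra-H2BGFP reporter allele (B6.129S4-Pdgfratm11(EGFP)Sor/J on C57BL/6), in which a nuclear GFP marks cells that transcribe *Pdgfra*. From each of mice A and E (males) and F (female), 4 populations were sorted without CD45, CD11b and CD31 cells: EpCAM+ DCs and the PDGFRa+SCA1-, PDGFRa+SCA1+ and PDGFRa-SCA1+ populations. The transwell experiment used wild type C57BL/6 mice of 8 to 12 weeks and held 6 groups of 2 libraries: DCs at day 0, DCs grown for 15 days as organoids in growth factor rich expansion medium (EM organoids), organoids grown for 15 days above mesenchymal cells (co-cultured organoids), and SCA1+ mesenchymal cells (SCA1+Msc) at day 0, cultured alone or co-cultured with DCs. SCA1+Msc had been sorted without a PDGFRa gate and were expanded on plastic before the DCs were added on the insert, and co-cultured organoids lay in the medium of the mesenchymal cells without the added growth factors, so the medium and the presence of SCA1+Msc cannot be told apart when they are compared with EM organoids. According to the methods, 2 littermates gave the mesenchymal cells and 2 others the DCs, and which library came from which animal is not given in the sources used here, so the p-values measure the spread between these libraries.

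Matrix metalloproteinases are zinc proteases that are made as inactive precursors, and they cut collagens, laminins, proteoglycans and many cell surface proteins. The TIMPs block the active site of MMPs, with TIMP3 also acting on ADAMTS and ADAM proteases. ADAMTS proteases process procollagens, versican and aggrecan or von Willebrand factor, whereas ADAMTS-like proteins lack the protease domain and bind the matrix, mostly fibrillin microfibrils. In the liver, stellate cells and portal fibroblasts are known sources of MMPs and TIMPs during fibrosis, and MMP7 is known as a protease of the biliary epithelium.

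Of the 23 *Mmp* genes, 10 lie side by side on chromosome 9 between *Mmp13* and *Mmp7*, and the promoters of 5 of them are shown because these neighbours were high in different cell types. The sequences are from RefSeq on GRCm38.p6 and run from 250 bases before to 50 bases after the start. They are *Mmp13* at chr9:7272264-7272563, *Mmp3* at chr9:7445572-7445871, *Mmp10* at chr9:7502092-7502391, *Mmp8* at chr9:7558179-7558478 and *Mmp7* at chr9:7691840-7692139, all on the plus strand and printed 5′ to 3′. Capitals mark the AP-1 consensus TGACTCA, which reads TGAGTCA on the other strand, and the letters TATAAA of the TATA box, which read TTTATA on the other strand. Both strands were searched.
Mmp13: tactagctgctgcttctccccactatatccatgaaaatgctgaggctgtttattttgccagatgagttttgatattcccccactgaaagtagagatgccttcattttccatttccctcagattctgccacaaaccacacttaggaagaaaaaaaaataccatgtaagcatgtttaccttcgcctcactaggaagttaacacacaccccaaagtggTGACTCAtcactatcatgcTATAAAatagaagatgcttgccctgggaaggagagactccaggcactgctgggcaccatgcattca
Mmp3: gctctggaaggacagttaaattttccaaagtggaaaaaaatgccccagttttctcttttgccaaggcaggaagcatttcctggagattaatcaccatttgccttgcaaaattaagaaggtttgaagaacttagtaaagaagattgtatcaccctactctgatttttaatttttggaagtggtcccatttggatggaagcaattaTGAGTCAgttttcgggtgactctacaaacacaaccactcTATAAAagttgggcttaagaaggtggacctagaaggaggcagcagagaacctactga
Mmp10: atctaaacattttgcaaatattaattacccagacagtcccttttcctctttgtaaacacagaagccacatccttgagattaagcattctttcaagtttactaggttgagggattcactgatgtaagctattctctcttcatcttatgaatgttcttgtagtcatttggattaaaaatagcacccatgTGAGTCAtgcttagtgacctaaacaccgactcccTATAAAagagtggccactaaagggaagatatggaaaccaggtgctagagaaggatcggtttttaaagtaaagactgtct
Mmp8: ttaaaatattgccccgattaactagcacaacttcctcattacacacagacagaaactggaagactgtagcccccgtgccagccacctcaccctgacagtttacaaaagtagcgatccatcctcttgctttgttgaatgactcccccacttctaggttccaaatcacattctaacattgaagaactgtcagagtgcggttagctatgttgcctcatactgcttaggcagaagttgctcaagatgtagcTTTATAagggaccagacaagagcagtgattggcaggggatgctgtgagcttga
Mmp7: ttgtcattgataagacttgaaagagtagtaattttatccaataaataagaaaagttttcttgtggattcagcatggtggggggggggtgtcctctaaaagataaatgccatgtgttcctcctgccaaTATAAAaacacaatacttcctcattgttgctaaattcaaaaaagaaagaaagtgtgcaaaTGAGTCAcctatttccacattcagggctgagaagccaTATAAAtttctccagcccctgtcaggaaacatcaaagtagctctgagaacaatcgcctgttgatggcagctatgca
The AP-1 letters stand at -35 from the start in *Mmp13*, at -46 in *Mmp3* and at -63 in both *Mmp10* and *Mmp7*, and are not in this window of *Mmp8*. Over 32851 promoters of the same length, 5.2% held the AP-1 letters, 13.6% the TATA letters and 0.941% both. A promoter was found for 36 of the 51 members, with 39 promoters in all. Both motifs were found in 7 member genes, each of them in the cluster on chromosome 9. The AP-1 letters were in 7 of the 12 cluster promoters (7 of the 10 cluster genes) and in 0 of the 27 other member promoters. A match is a description of the letters, and no binding was measured here.

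Whole reads recovered from low values gave 19.6 to 25.7 M reads per homeostasis library (median 22.4 M) and 19.3 to 28.1 M per transwell library (median 22.85 M). In the homeostasis table the values named TPM are called deposited values here, because each had been divided by the total of a library that changes from row to row, which places them between 0.7216 and 1.386 times the TPM. Differences are log2 fold changes of value + 1 with their standard errors (SE) and Benjamini-Hochberg adjusted p-values from limma, and a difference is called at an adjusted p under 0.05. Markers of the sorted cells matched the labels of DCs and of both PDGFRa+ populations. They did not for the PDGFRa-SCA1+ population, which is labelled mesenchymal: 6 endothelial markers summed to 2621, 2877 and 2565 in mice A, E and F and to at most 24.67 in the other populations, while 6 mesenchymal markers summed to 455, 244 and 465.2 and *Pdgfra* was near 0. In mouse E this population also held 3784 of 6 summed ductal markers, against 79.32 and 327.2 in mice A and F. It is called by its gate here. The 5 hepatocyte markers summed to 5845, 6977 and 6133 in DCs and to 2881, 6539 and 2126 in PDGFRa-SCA1+ cells. PDGFRa+SCA1- cells held 868.2, 1437 and 1569 of them and PDGFRa+SCA1+ cells 1355, 2451 and 979.6. The part of these markers in the results was not tested.

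**Figure D1:**
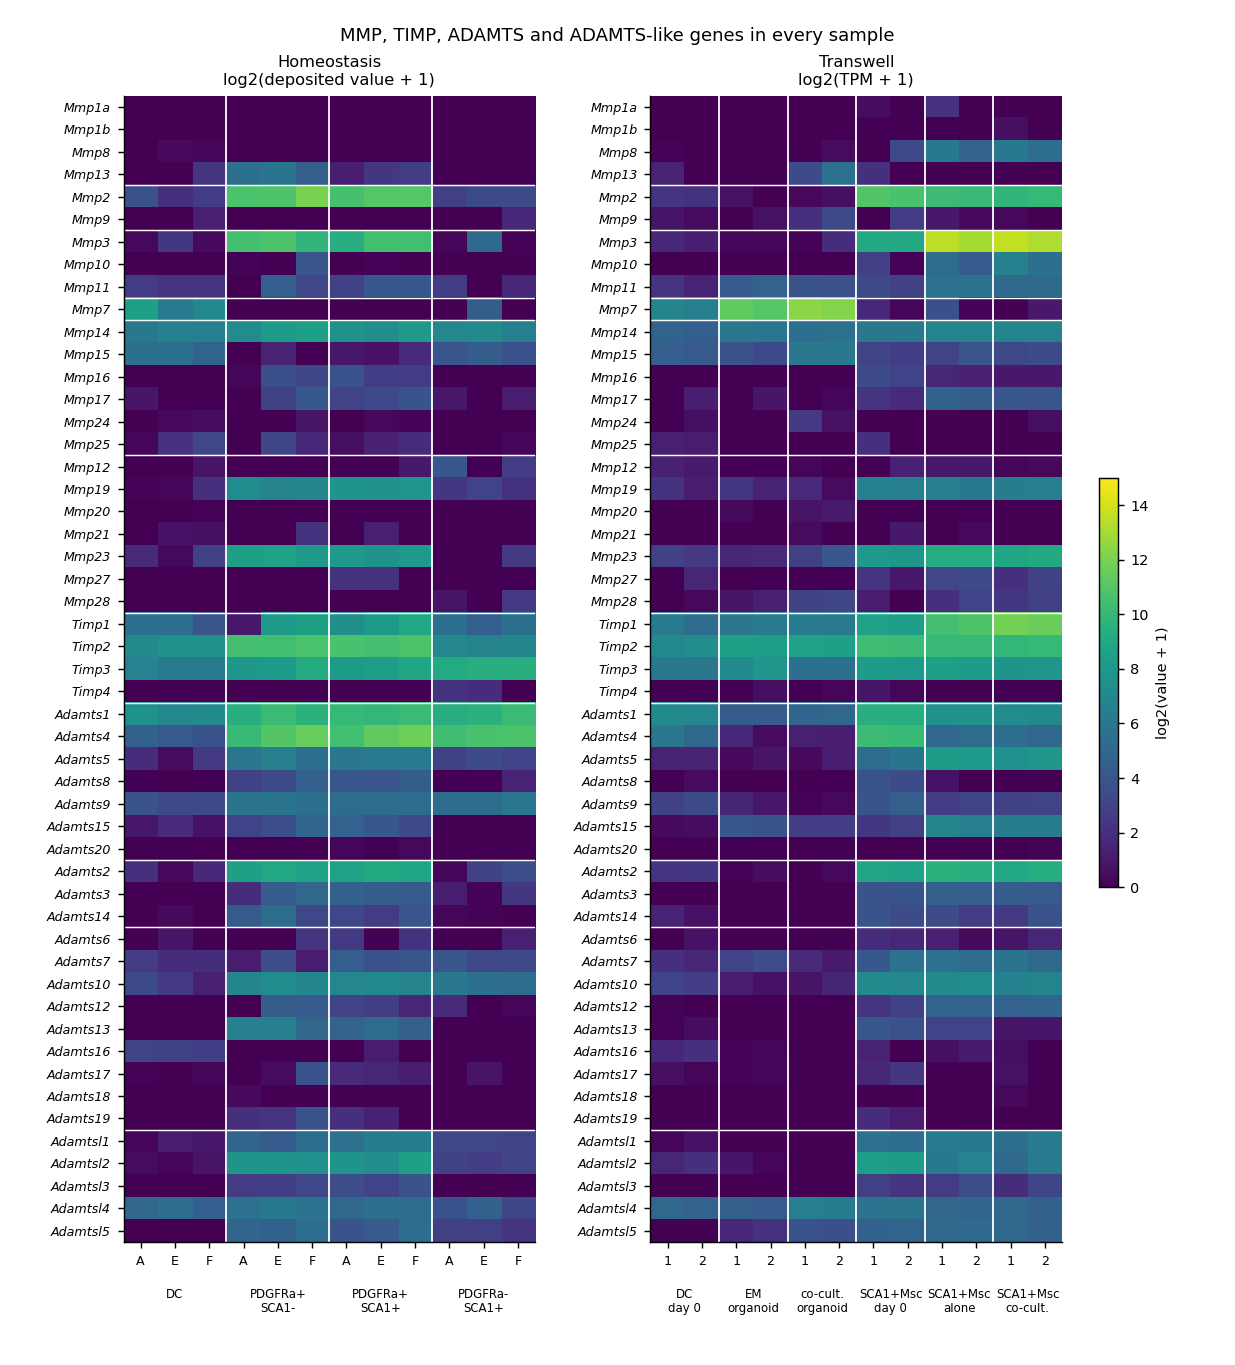
Levels of the 51 members in every library, as log2(deposited value + 1) in the homeostasis experiment (left) and log2(TPM + 1) in the transwell experiment (right). Each column is 1 library, white lines separate groups and gene roles, and the colour runs from 0 to 15. *Mmp2*, *Mmp3*, *Mmp19* and *Mmp23* are bright in the PDGFRa+ populations and in SCA1+Msc, *Mmp7* is bright in DCs and organoids, and *Timp2* and *Timp3* are at 43.3 or above in every library.

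In homeostasis, most of the tested members were higher in the PDGFRa+ populations than in DCs. Against DCs, *Mmp2*, *Mmp3*, *Mmp19*, *Mmp23*, *Adamts2*, *Adamts4* and *Adamtsl2* were higher in both PDGFRa+SCA1+ and PDGFRa+SCA1- cells, whereas *Mmp7*, *Mmp15* and *Adamts16* were lower. In PDGFRa+SCA1+ cells 27 of the 38 members tested differed from DCs, 24 higher and 3 lower, where 23.8% of 17028 genes did (9.85% higher and 14.0% lower). In PDGFRa+SCA1- cells 28 of 38 differed, 25 higher and 3 lower, against 28.8% of all genes (9.98% higher and 18.9% lower). The median difference of the tested members was 3.10 and 2.79, or 3.10 and 3.0 with genes at 0 in 1 group set to their bound, beside -0.28 and -0.47 over all genes. A gene entered the test with a value of at least 1 in 3 samples. This favours a difference, though it does not fix a call, in members that entered through their high group. Both comparisons share the same 3 DC libraries. With bulk RNA, fewer cells of a type and less RNA per cell cannot be told apart.

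*Mmp2* and *Mmp3* led the MMPs of the PDGFRa+ populations. *Mmp2*, the gelatinase that is activated at the cell surface, stood at 1593, 2077 and 2117 in the PDGFRa+SCA1+ libraries (mouse A, E and F in this order, as below) and at 1703, 1906 and 4085 in PDGFRa+SCA1- cells. In DCs it stood at 12.2, 3.235 and 5.43, and in PDGFRa-SCA1+ cells at 6.03, 9.15 and 9.60. The PDGFRa+ libraries lay far above the others without overlap, and the differences from DCs were 8.07 (SE 0.42, adjusted p = 8.1e-08) and 8.38 (SE 0.42, adjusted p = 7.7e-08). *Mmp2* made up 50.8% and 53.8% of the summed *Mmp* values of these populations. *Mmp9*, the other gelatinase, reached at most 2.167 in any homeostasis library.

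*Mmp3*, a stromelysin that cuts many matrix proteins and activates other MMPs, stood at 700.0, 1392 and 1386 in PDGFRa+SCA1+ and at 1490, 1778 and 919.9 in PDGFRa+SCA1- cells. DCs held 0.252, 4.139 and 0.284. Its differences from DCs were the largest among the tested members, 9.10 (SE 1.08, adjusted p = 5.7e-05) and 9.38 (SE 1.08, adjusted p = 4.3e-05). In PDGFRa-SCA1+ cells *Mmp3* was near 0 in mice A and F (0.168 and 0.0946) and at 34.1 in mouse E, above every DC library. What raised it in that library was not tested. Its neighbour *Mmp10* was above 1 in a single homeostasis library, PDGFRa+SCA1- cells of mouse F, at 14.9. *Mmp11* stood at 5.385, 3.81 and 3.71 in DCs and at 6.72, 15.9 and 16.5 in PDGFRa+SCA1+ cells without overlap, yet the difference of 1.33 (SE 1.02) was not called (adjusted p = 0.394).

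*Mmp13*, the interstitial collagenase of rodents, separated the PDGFRa+ populations by level. It stood at 46.1, 55.8 and 21.8 in PDGFRa+SCA1- cells and at 1.40, 4.42 and 5.63 in PDGFRa+SCA1+ cells, with no overlap. DCs held 0, 0 and 3.88, and PDGFRa-SCA1+ cells were at 0. Against DCs it was higher in PDGFRa+SCA1- cells (4.54, SE 0.71, adjusted p = 4.8e-04), while the difference of PDGFRa+SCA1+ from PDGFRa+SCA1- cells was -3.16 (SE 0.71) with an adjusted p of 0.0833. A further collagenase, *Mmp8*, did not pass 0.285 in any homeostasis library.

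DCs carried their own protease. *Mmp7*, or matrilysin, stood at 370.5, 71.0 and 127 in DCs and at 0 in the 6 PDGFRa+ libraries. Against a floor of 3 reads per library this was at least 409-fold below the mean of the DCs. In PDGFRa-SCA1+ cells it was at 0 in mice A and F and at 20.3 in mouse E, beside the ductal markers of that library, whose part in the result was not tested. *Mmp7* made up 56.6% of the summed *Mmp* values of DCs. A gene that overlaps 11.5% of the *Mmp7* exons could share its reads, since the libraries keep no strand.

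Membrane-type MMPs divided between the cell types. *Mmp14*, which activates the *Mmp2* precursor at the cell membrane, was present in every library, at 65.3, 94.3 and 87.8 in DCs and at 207, 163 and 268 in PDGFRa+SCA1+ cells, a difference of 1.34 (SE 0.34, adjusted p = 0.0124). *Mmp15* went the other way, with 44.7, 43.2 and 27.5 in DCs and 0.979, 0.644 and 2.52 in PDGFRa+SCA1+ cells (-4.10, SE 0.57, adjusted p = 2.0e-04). It was also higher in PDGFRa-SCA1+ cells, at 14.6, 20.8 and 12.9, than in PDGFRa+SCA1+ cells (2.90, SE 0.57, adjusted p = 0.0034). By level of *Mmp15*, DCs were high, PDGFRa-SCA1+ cells intermediate and PDGFRa+ cells low, with no overlap. The step from DCs to PDGFRa-SCA1+ cells was not called, however (-1.20, SE 0.57, adjusted p = 0.163 by limma). *Mmp16* was called higher in PDGFRa+SCA1- cells than in DCs (2.34, adjusted p = 0.0372), a call that was lost with the mouse as a block (adjusted p = 0.0515).

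*Mmp19* and *Mmp23* followed *Mmp2*. *Mmp19* stood at 219, 204 and 221 in PDGFRa+SCA1+ and at 157, 105 and 114 in PDGFRa+SCA1- cells, against at most 3.20 in DCs, and the difference of PDGFRa+SCA1+ cells from DCs was 6.93 (SE 0.49, adjusted p = 8.8e-07). Other genes overlap 28.3% of its exons, so part of its value could be theirs. *Mmp23*, an MMP anchored in the membrane by its amino terminus, stood at 263, 196.5 and 267 in PDGFRa+SCA1+ cells and at 2.58, 0.239 and 6.34 in DCs (6.24, SE 0.71, adjusted p = 4.1e-05). Neither gene overlapped between PDGFRa+ populations and the other 2 populations. *Mmp20*, *Mmp24* and *Mmp28* did not pass 5 in any homeostasis library.

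The inhibitors did not follow one pattern. *Timp2*, which both inhibits *Mmp2* and takes part in its activation, stood at 1628, 1543 and 1812 in PDGFRa+SCA1+ cells, at 1530, 1404 and 1696 in PDGFRa+SCA1- cells, at 144, 206 and 196 in DCs and at 121, 105 and 119 in PDGFRa-SCA1+ cells. The PDGFRa+ populations were higher than DCs by 3.20 (SE 0.19, adjusted p = 2.0e-07) and 3.09 (SE 0.19, adjusted p = 3.0e-07). *Timp3*, the inhibitor that binds to the matrix, stood at 563.5, 675 and 684 in PDGFRa-SCA1+ cells and was lowest in DCs with 98.7, 72.5 and 72.0, a difference of 2.98 (SE 0.31, adjusted p = 2.2e-05). PDGFRa+SCA1+ cells held 286, 337 and 460, below the PDGFRa-SCA1+ libraries without a call (0.85, SE 0.31, adjusted p = 0.0817). PDGFRa+SCA1- cells averaged 374.2 ± 185.9 (SD, n = 3) and, with 587.9 in mouse F, overlapped with PDGFRa-SCA1+ cells. Both PDGFRa+ populations were higher than DCs (2.13 and 2.10). A gene overlapping 21.3% of the *Timp3* exons limits its precision. *Timp4* stayed at or under 3.514.

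*Timp1* was called in no homeostasis comparison. It stood at 172, 288 and 519 in PDGFRa+SCA1+ cells and at 44.3, 40.2 and 14.7 in DCs without overlap, yet the difference of 3.26 (SE 1.49) had an adjusted p of 0.141. PDGFRa+SCA1- cells held 0.935 in mouse A and 261 and 361 in mice E and F. The library of mouse A thus lay below the DCs and the others above them, and all 4 populations share the estimate of the spread it enters. In the same library *Mmp11* and *Mmp17* were at 0, where mice E and F held 21.1 and 8.00, and 6.35 and 16.7.

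The proteoglycanases *Adamts1* and *Adamts4*, which cut versican and aggrecan, were the ADAMTS genes with the highest values. *Adamts4* stood at 1433, 2598 and 3292 in PDGFRa+SCA1+, at 1113, 2061 and 2879 in PDGFRa+SCA1- and at 1367, 1632 and 1702 in PDGFRa-SCA1+ cells, whereas DCs held 23.8, 18.1 and 12.7. The stromal populations overlapped with each other and lay above DCs by 6.95, 6.65 and 6.39 (SE 0.37 each, adjusted p at most 4.3e-07). *Adamts1* showed the same order, with 123.5 to 204 in DCs and 654 to 1220 across the stromal populations. A list of 6 immediate early genes, known to be induced by tissue dissociation, summed to 12119 to 16196 in DCs and to 17326 to 25944 in the stromal populations. *Fos*, *Jun* and *Junb* averaged higher in each stromal population than in DCs. *Atf3* averaged lower in each, with 2661 in DCs and 748 in PDGFRa+SCA1+ cells. *Egr1* and *Fosb* were higher in the PDGFRa+ populations and lower in PDGFRa-SCA1+ cells. The part of this list in these values was not tested.

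The procollagen N-proteinases were higher in both PDGFRa+ populations than in DCs. *Adamts2*, which removes the amino propeptide of fibrillar procollagens, stood at 399.5, 562 and 471 in PDGFRa+SCA1+ and at 370.1, 499.8 and 378 in PDGFRa+SCA1- cells. DCs held 3.23, 0.256 and 2.35 and PDGFRa-SCA1+ cells 0.160, 6.39 and 11.04, so neither group overlapped with the PDGFRa+ libraries. The differences from DCs were 7.50 (SE 0.72, adjusted p = 1.1e-05) and 7.31 (SE 0.72, adjusted p = 1.3e-05). Its relative *Adamts3* was at 0 in DCs and at least 231-fold higher in PDGFRa+SCA1+ cells against the floor, and *Adamts14* stood at 8.28, 5.20 and 15.3 there with at most 0.324 in DCs.

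Other ADAMTS genes differed in their pattern. *Adamts13*, the protease of von Willebrand factor that stellate cells are known to make, stood at 91.0, 93.1 and 29.4 in PDGFRa+SCA1- and at 25.6, 36.7 and 22.4 in PDGFRa+SCA1+ cells. It did not pass 0.0378 in DCs and was at 0 in PDGFRa-SCA1+ cells, at least 274-fold below PDGFRa+SCA1+ cells. The PDGFRa+ populations overlapped. *Adamts16* was higher in DCs than in the other populations, at 7.56, 6.68 and 5.88 there, and passed 1 in a single other library (PDGFRa+SCA1+ cells of mouse E, 1.216). *Adamts10*, a fibrillin-binding member, was at 121, 127 and 102 in PDGFRa+SCA1+ cells, at 62.1, 43.6 and 40.0 in PDGFRa-SCA1+ cells and at 9.26, 4.84 and 1.47 in DCs, without overlap. PDGFRa-SCA1+ cells were called higher than DCs (3.20, SE 0.44, adjusted p = 1.9e-04 by limma). Their difference from PDGFRa+SCA1+ cells was not called (-1.26, SE 0.44, adjusted p = 0.0669 by limma).

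Of the ADAMTS-like genes, *Adamtsl2*, which binds fibrillin and the latent TGF-beta binding proteins, stood at 217, 164 and 366 in PDGFRa+SCA1+ and at 216, 219 and 180.4 in PDGFRa+SCA1- cells. DCs held at most 0.724, and PDGFRa-SCA1+ cells 6.78, 5.72 and 7.28. The PDGFRa+SCA1+ difference from DCs was 7.42 (SE 0.36, adjusted p = 4.2e-08), and the PDGFRa-SCA1+ population lay between the others without overlap. *Adamtsl4* was the member of this group that DCs did hold, at 30.4, 39.8 and 21.5. It overlapped with PDGFRa+SCA1+ cells (32.9, 43.4 and 36.8).

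**Figure D2:**
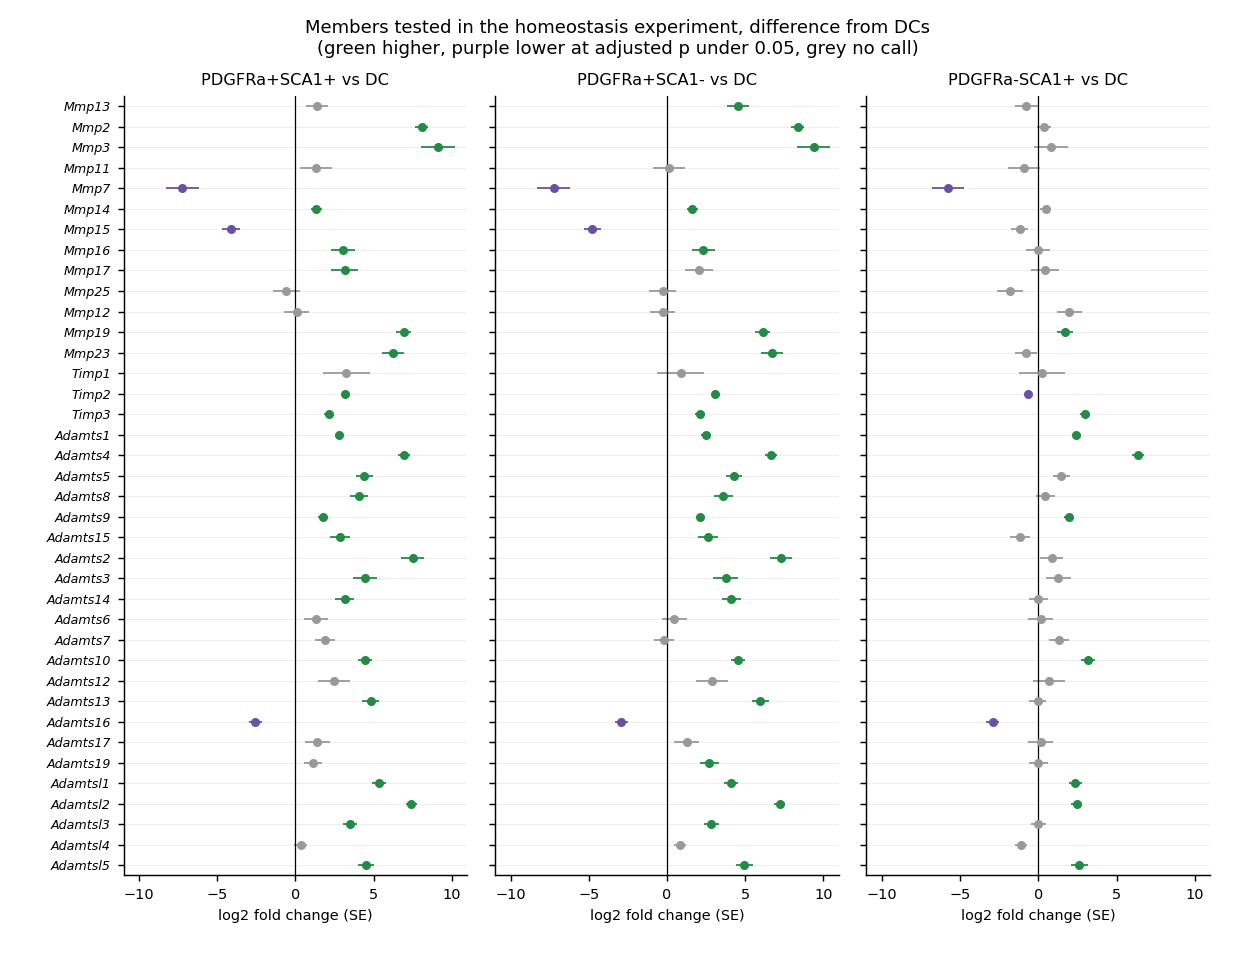
Difference from DCs of the 38 members tested in the homeostasis experiment, as log2 fold change (horizontal axis) with its standard error, for PDGFRa+SCA1+, PDGFRa+SCA1- and PDGFRa-SCA1+ cells from left to right, 3 libraries per population. Green points are higher and purple points lower than DCs at an adjusted p under 0.05, and grey points were not called. The left and middle panels hold 24 and 25 green points and 3 purple points each, the right panel 9 green and 3 purple points.

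The PDGFRa-SCA1+ population shared part of the ADAMTS genes but few MMPs with PDGFRa+ cells. Against DCs, 12 of the 38 tested members differed, 9 higher and 3 lower (22.8% of all genes tested, 11.5% higher and 11.3% lower), and among the 13 tested MMPs only *Mmp19* was higher and only *Mmp7* lower. Against PDGFRa+SCA1+ cells, 20 members differed, 19 lower and 1, *Mmp15*, higher (18.8% of all genes, 7.86% lower and 10.9% higher). The median of the tested members was -2.20 beside 0.25 over all genes. *Mmp3* (-8.28, SE 1.08, adjusted p = 1.8e-04), *Mmp2* (-7.72, SE 0.42, adjusted p = 3.7e-07) and *Mmp23* (-7.02, SE 0.71, adjusted p = 2.8e-05) had the largest fitted differences, while *Adamts13* and *Adamtsl3*, at 0 in PDGFRa-SCA1+ cells, were at least 274-fold and 163-fold lower against the floor of 3 reads per library. *Timp2* was lower than in DCs by a small margin (-0.64, SE 0.19, adjusted p = 0.0268), a call that was lost once the reuse of library totals was undone (adjusted p = 0.0772). With the mouse as a block the lower *Mmp17* was lost (adjusted p = 0.0563), and a lower *Adamtsl4* against DCs was gained (-1.10, adjusted p = 0.0436). These comparisons share libraries with those above.

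Between PDGFRa+SCA1+ and PDGFRa+SCA1- cells, limma called 0 of 38 members, where 0.587% of all genes were called (0.435% higher and 0.153% lower), and 4 members had an unadjusted p under 0.05. These were *Mmp13* (above), *Adamts7* (2.10, SE 0.65, adjusted p = 0.213), *Adamtsl1* (1.22, SE 0.44, adjusted p = 0.293) and *Adamts19* (-1.59, SE 0.59, adjusted p = 0.312). Smooth muscle markers moved with the gate, since 4 of them summed to 1236, 1889 and 2769 in PDGFRa+SCA1- and to 162, 128.5 and 168.5 in PDGFRa+SCA1+ cells, and their part in these values was not tested. Without the PDGFRa+SCA1- library of mouse E, 1 member was called, *Adamts7*.

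The ratio of the summed *Mmp* to the summed *Timp* values was 2.19, 2.35 and 2.20 in PDGFRa+SCA1- cells, 1.45, 1.88 and 1.54 in PDGFRa+SCA1+ cells and 1.75, 0.708 and 0.982 in DCs. In PDGFRa-SCA1+ cells it was 0.230, 0.281 and 0.159, below the other populations without overlap. These are sums of RNA levels and say nothing of active protease.

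Among 26 activators, inhibitors and ADAM sheddases that act with these families, 25 were tested. Of these, 13 were higher and 4 lower in PDGFRa+SCA1+ cells than in DCs (9.85% and 14.0% of all genes). The same numbers held for PDGFRa+SCA1- cells (9.98% and 18.9% of all genes). *Thbs2*, a thrombospondin that clears *Mmp2* from the pericellular space, averaged 789 ± 43.0 (SD, n = 3) in PDGFRa+SCA1+ cells and 0.560 ± 0.556 in DCs (9.04, SE 0.43, adjusted p = 4.2e-08 by limma). *Pcolce*, the enhancer of the procollagen C-proteinase, averaged 463 ± 23.9 against 5.01 ± 1.49 (6.30, SE 0.30, adjusted p = 4.2e-08 by limma). *Plaur*, the urokinase receptor, was higher in DCs, at 2707 ± 130.1 against 240 ± 95.6 (-3.56, SE 0.36, adjusted p = 1.6e-05 by limma). In PDGFRa-SCA1+ cells, 9 were higher and 6 lower than in DCs (11.5% and 11.3% of all genes). Against PDGFRa+SCA1+ cells 3 were higher and 11 lower there (10.9% and 7.86% of all genes), with *Thbs2* at 4.49 ± 2.35. Between the PDGFRa+ populations 0 of 25 were called by limma (0.587% of all genes).

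In the transwell experiment the freshly sorted cells showed the same division, in other mice and with a sort that did not use PDGFRa. SCA1+Msc at day 0 differed from DCs at day 0 in 34 of 43 tested members, 32 higher and 2 (*Mmp7* and *Mmp15*) lower, where 46.1% of 18136 genes differed (21.4% higher and 24.7% lower). The median difference was 2.34, or 2.49 with genes at 0 in DCs at their bound, beside -0.07 over all genes. *Mmp2* stood at 1975 and 1686 TPM in SCA1+Msc and at 3.90 and 3.56 in DCs (8.59, SE 0.21, adjusted p = 1.7e-08), and *Mmp3* at 553 and 539 against 2.13 and 1.42 (7.64, SE 0.45, adjusted p = 1.4e-06). *Adamts2* stood at 424 and 377.5 against 3.96 and 4.38, and *Adamtsl2* at 336.5 and 315 against 2.09 and 3.08. *Timp1* was called here, at 384 and 319.5 against 71.5 and 40.3 (2.68, SE 0.24, adjusted p = 1.7e-05). Endothelial markers summed to 217 and 229 in these SCA1+Msc and hepatocyte markers to 22124 and 17612, and their part was not tested.

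Grown as organoids, DCs held more *Mmp7* and less *Adamts1* and *Adamts4* than at day 0. In EM organoids 20 of 43 tested members differed from DCs at day 0, 8 higher and 12 lower, where 44.4% of all genes did (27.1% higher and 17.2% lower). With RPKM as deposited in place of TPM the split was 8 higher and 6 lower, and without the second library of either group 13 members were called. In co-cultured organoids 18 differed from the same DC libraries, 10 higher and 8 lower (42.3% of all genes, 23.2% higher and 19.1% lower). The shares of called members were thus close to those of all genes, 46.5% and 41.9%.

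*Mmp7* stood at 114 and 89.6 TPM in DCs at day 0, at 2553 and 2085 in EM organoids and at 5280 and 4730 in co-cultured organoids. The 3 groups did not overlap. The rise over DCs was 4.50 (SE 0.92, adjusted p = 0.00321) in EM and 5.61 (SE 0.92, adjusted p = 9.6e-04) in co-culture, while the difference between the organoids, 1.11 (SE 0.92), had an adjusted p of 0.534. With a pseudocount of 0.1 the rise in EM was not called (adjusted p = 0.0744). Its large standard error is shared with SCA1+Msc, where it stood between 0 and 11.7 with a wide spread. *Mmp7* made up 95.9% of the summed *Mmp* TPM of EM organoids and 96.5% of that of co-cultured organoids.

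With it, the ratio of summed *Mmp* to summed *Timp* TPM went from 0.709 and 0.567 in DCs to 4.79 and 3.42 in EM organoids and to 10.7 and 10.6 in co-cultured organoids. *Timp2* rose in both, from 129 and 162 to 348 and 345 in EM (1.25, SE 0.11, adjusted p = 1.9e-05) and to 392 and 347.5 in co-culture (1.34, SE 0.11, adjusted p = 1.4e-05). *Mmp11*, at 3.80 and 1.80 in DCs, rose to 17.7 and 24.9 and to 13.3 and 12.0. *Mmp14* rose from 26.7 and 21.8 to 59.8 and 58.6 and to 42.0 and 48.7. *Timp1* overlapped between DCs (71.5 and 40.3) and EM organoids (60.5 and 70.4).

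*Adamts1* and *Adamts4*, the leading ADAMTS genes of fresh DCs, fell in organoids. *Adamts4* fell from 60.4 and 32.2 to 2.13 and 0.358 in EM (-4.45, SE 0.40, adjusted p = 2.1e-05) and to 1.46 and 1.24 in co-culture (-4.26, SE 0.40, adjusted p = 3.0e-05). *Adamts1* fell from 142 and 122 to 20.3 and 19.8 in EM (-2.66, SE 0.11, adjusted p = 3.3e-07) and to 28.5 and 29.3 in co-culture (-2.15, SE 0.11, adjusted p = 1.0e-06). Beside them the immediate early genes summed to 7690 and 7620 in DCs at day 0, to 692.9 and 721.1 in EM organoids and to 1024 and 913.3 in co-cultured organoids, and their part in these falls was not tested. *Adamts15*, of the same group of proteases, rose from 0.2803 and 0.386 to 16.1 and 13.5 in EM (3.56, SE 0.22, adjusted p = 2.4e-06) and to 5.565 and 5.53 in co-culture (2.30, SE 0.22, adjusted p = 3.8e-05). *Adamts9* fell from 6.525 and 9.75 to 1.94 and 0.926 and to 0.111 and 0.273.

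*Adamts2* and *Mmp2*, low in DCs at day 0, were lower still in organoids. *Adamts2* went from 3.96 and 4.38 to at most 0.403 in EM (-2.05, SE 0.19, adjusted p = 2.9e-05) and to at most 0.227 in co-culture (-2.22, SE 0.19, adjusted p = 1.9e-05). *Mmp2* went from 3.90 and 3.56 to at most 0.582. Mesenchymal markers fell beside them, from a sum of 68.3 and 86.8 in DCs at day 0 to 7.78 and 1.94 in EM organoids and to 2.78 and 17.6 in co-cultured organoids, and their part was not tested.

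Between the organoids, 10 of 43 members differed, 7 higher and 3 lower in co-culture than in EM (12.9% of all genes, 5.73% higher and 7.21% lower). The higher ones were *Mmp13*, *Mmp15*, *Mmp23*, *Mmp28*, *Adamtsl4*, *Adamtsl5* and *Adamts1*, and the lower ones *Timp3*, *Adamts7* and *Adamts15*. Medium and SCA1+Msc changed together in this comparison, as stated above. Without the first or the second EM library, 6 members were called.

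*Mmp13* stood at 0 in both EM organoid libraries and at 9.91 and 49.5 in co-cultured organoids (fitted difference 4.55, SE 0.81, adjusted p = 0.00551). The mean of the co-cultured libraries was at least 178-fold higher against the mean floor of 3 reads per library, and the lower library lay nearer to it. The co-cultured libraries differed widely from each other, and DCs at day 0 held 1.65 and 0. Mesenchymal markers also differed between these libraries (2.78 and 17.6), and their part in the result was not tested. *Mmp13* was at 0 in both libraries of co-cultured SCA1+Msc. *Mmp15* stood at 60.6 and 63.0 against 13.1 and 9.34 (2.38, SE 0.30, adjusted p = 9.5e-04), above the 21.4 and 18.1 of DCs at day 0. *Mmp28*, known as epilysin, stood at 6.61 and 7.74 against 0.760 and 1.495 (1.96, SE 0.48, adjusted p = 0.026), a call that was lost with a pseudocount of 0.1 (adjusted p = 0.213) and without any 1 of the 4 libraries (adjusted p 0.0734 to 0.153).

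*Timp3* was the inhibitor that differed. It stood at 145 and 224 in EM organoids and at 43.3 and 44.8 in co-cultured organoids (-2.01, SE 0.19, adjusted p = 1.6e-04), where DCs at day 0 held 64.5 and 60.9. By level the EM libraries lay above and the co-cultured ones below the fresh cells, but the lower *Timp3* of co-cultured organoids was not called against DCs at day 0. *Adamtsl4* stood at 22.2 and 19.9 in EM and at 85.5 and 77.6 in co-culture (1.91, SE 0.17, adjusted p = 1.3e-04). *Adamtsl5* stood at 2.26 and 3.58 against 12.6 and 11.7 (1.77, SE 0.25, adjusted p = 0.00182). *Adamts7* went the other way, with 7.16 and 10.8 against 2.56 and 1.12 (-1.83, SE 0.48, adjusted p = 0.0354), a call that was lost under quantile normalization (adjusted p = 0.0998), with the replicate number as a block (adjusted p = 0.0511) and without any 1 of the libraries (adjusted p 0.0668 to 0.194). *Mmp23*, at 6.07 and 16.0 against 2.28 and 2.41 (1.71, SE 0.33, adjusted p = 0.00899), was not called without either EM library (adjusted p 0.0523 and 0.0569), and the part of the mesenchymal markers of the second co-cultured library in it was not tested.

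**Figure D3:**
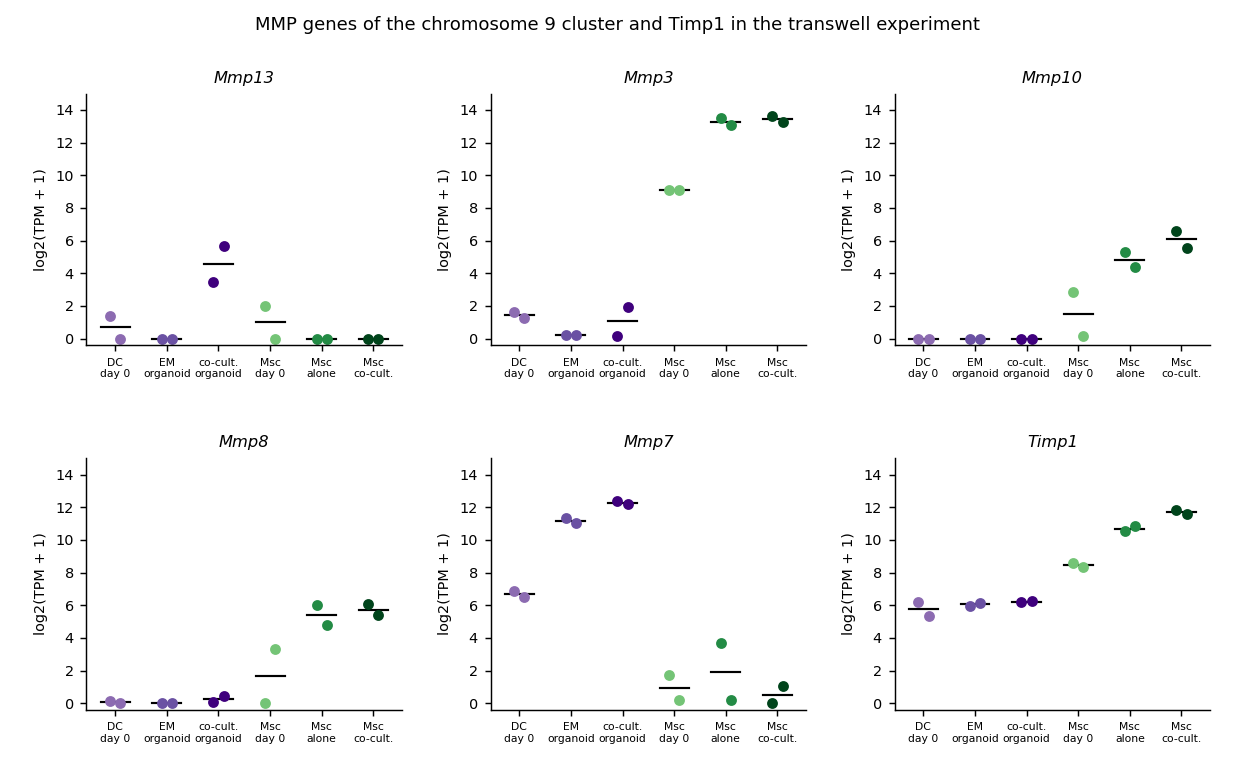
Levels of *Mmp13*, *Mmp3*, *Mmp10*, *Mmp8*, *Mmp7* and *Timp1* in the 6 transwell groups, as log2(TPM + 1). Each point is 1 library and each bar the mean of the 2 libraries. *Mmp13* and *Mmp7* are highest in co-cultured organoids, whereas *Mmp3*, *Mmp10*, *Mmp8* and *Timp1* are highest in cultured SCA1+Msc.

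In SCA1+Msc, the summed *Mmp* TPM went from 3001 and 2665 at day 0 to 13897 and 10537 alone and to 14579 and 11578 in co-culture, and the leading gene changed from *Mmp2* to *Mmp3*. Alone, 25 of 43 members differed from day 0, 14 higher and 11 lower (44.8% of all genes, 27.4% higher and 17.5% lower), and in co-culture 24, 12 higher and 12 lower (43.3%, 26.0% higher and 17.3% lower), both against the same 2 day 0 libraries. *Mmp3* stood at 553 and 539 TPM at day 0, at 11608 and 8489 alone and at 12760 and 9628 in co-culture (4.18, SE 0.45, adjusted p = 7.1e-05, and 4.34, SE 0.45, adjusted p = 5.8e-05). It then made up 82.2% and 85.6% of the summed *Mmp* TPM, where *Mmp2* had led at day 0 with 64.6%. *Mmp2* itself stood at 1975 and 1686, at 1258 and 1107 and at 940.1 and 1037, called lower (-0.63, adjusted p = 0.0383, and -0.89, adjusted p = 0.00826), but not under quantile normalization (adjusted p 0.311 and 0.0895).

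*Mmp10* and *Mmp8*, in the same cluster on chromosome 9 as *Mmp3*, also rose in both cultures. *Mmp10* went from 6.13 and 0.0969 to 38.6 and 19.6 alone (3.35, SE 0.75, adjusted p = 0.00519) and to 96.4 and 45.2 in co-culture (4.58, SE 0.75, adjusted p = 9.3e-04). *Mmp8*, known as the collagenase of neutrophils, went from 0 and 9.15 to 64.6 and 26.5 alone (3.74, SE 0.88, adjusted p = 0.00685) and to 65.7 and 41.7 in co-culture (4.07, SE 0.88, adjusted p = 0.00445). Neutrophil markers summed to 117.6 and 125.2 at day 0, to 0 and 2.54 alone and to 5.46 and 0.879 in co-culture. *S100a8* and *S100a9*, with means of 69.7 and 46.7, made up most of the sum at day 0, where *Ly6g*, *Elane* and *Mpo* were at 0. The part of neutrophils in the *Mmp8* values was not tested. The call for *Mmp8* alone was lost without the first library of SCA1+Msc cultured alone (adjusted p = 0.0562). *Mmp13* and *Mmp7*, at both ends of the cluster, did not rise: *Mmp13* was at 0 in the 4 cultured libraries, and *Mmp7* did not pass 11.7. *Mmp1a* and *Mmp1b*, related genes between which some reads could be split, did not pass 3.349.

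*Timp1* rose from 384 and 319.5 to 1469 and 1882 alone (2.24, SE 0.24, adjusted p = 6.8e-05) and to 3667 and 3055 in co-culture (3.25, SE 0.24, adjusted p = 7.7e-06). The 3 groups did not overlap, and *Timp1* took the place of *Timp2* as the leading inhibitor, with 53.1% and 72.8% of the summed *Timp* TPM. *Timp2* stood at 1321 and 1270, 1141 and 1155, and 983 and 1073. Its call in co-culture (-0.33, adjusted p = 0.0338) turned to 0.02 under quantile normalization. The *Mmp* to *Timp* ratio went from 1.49 and 1.43 to 4.67 and 3.16 alone and to 2.99 and 2.66 in co-culture. Other MMPs that rose in both cultures were *Mmp11*, from 8.91 and 6.81 to 48.9 and 52.2 and to 35.1 and 34.8, and *Mmp14*, *Mmp17*, *Mmp23* and *Mmp28* by 0.68 to 2.47.

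Of the proteoglycanases in SCA1+Msc, *Adamts4* and *Adamts1* fell in culture and *Adamts15* and *Adamts5* rose. *Adamts4* fell from 1233 and 1168 to 29.8 and 39.0 alone (-5.10, SE 0.40, adjusted p = 1.0e-05) and to 41.5 and 30.0 in co-culture (-5.05, SE 0.40, adjusted p = 1.1e-05). *Adamts1* fell from 697 and 648 to 195 and 192 (-1.79, SE 0.11, adjusted p = 2.7e-06) and to 152 and 143 (-2.18, SE 0.11, adjusted p = 8.4e-07). The immediate early genes fell beside them, from sums of 22236 and 21398 at day 0 to 411.7 and 523.5 alone and 644.8 and 667.4 in co-culture, and their part was not tested. *Adamts8* went from 12.8 and 10.3 to 0.650 and 0 alone and to 0 in both co-cultured libraries, at least 120-fold lower against the floor.

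*Adamts15* rose from 4.31 and 6.07 to 113 and 89.4 alone (4.05, SE 0.22, adjusted p = 1.3e-06) and to 80.8 and 80.0 in co-culture (3.73, SE 0.22, adjusted p = 2.3e-06). *Adamts5*, a further aggrecan and versican protease, rose from 38.3 and 56.1 to 289 and 278 (2.58, SE 0.31, adjusted p = 1.4e-04) and to 195 and 242 (2.20, SE 0.31, adjusted p = 3.8e-04). Neither gene overlapped between day 0 and culture. *Adamts12*, which cuts the cartilage oligomeric matrix protein, rose from 3.70 and 6.555 to 25.4 and 25.2 and to 25.1 and 29.1. The sum of the smooth muscle markers rose beside these genes, from 566.7 and 777.6 to 3424 and 3123 and to 3883 and 3515. *Acta2* and *Actg2* carried this rise. *Cnn1* moved little, from a mean of 29.4 to 39.0 in either culture, and *Myh11* fell from 59.3 to 24.0 and 24.5. Summed proliferation markers rose from 6.55 and 2.92 to 63.4 and 61.6 and to 91.7 and 80.5. The part of both lists was not tested.

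*Adamts2* rose alone, from 424 and 377.5 to 793 and 700.0 (0.89, SE 0.19, adjusted p = 0.00436), and stood at 507 and 630 in co-culture. *Adamtsl2* fell from 336.5 and 315 to 65.75 and 98.3 alone (-2.00, SE 0.37, adjusted p = 0.00174) and to 34.9 and 70.8 in co-culture (-2.69, SE 0.37, adjusted p = 3.2e-04). *Adamtsl4* fell from 51.5 and 53.7 to 29.6 and 28.5 and to 30.9 and 24.2. Of the ADAMTS-like genes 2 were thus called lower in each culture and 3 were not called.

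**Figure D4:**
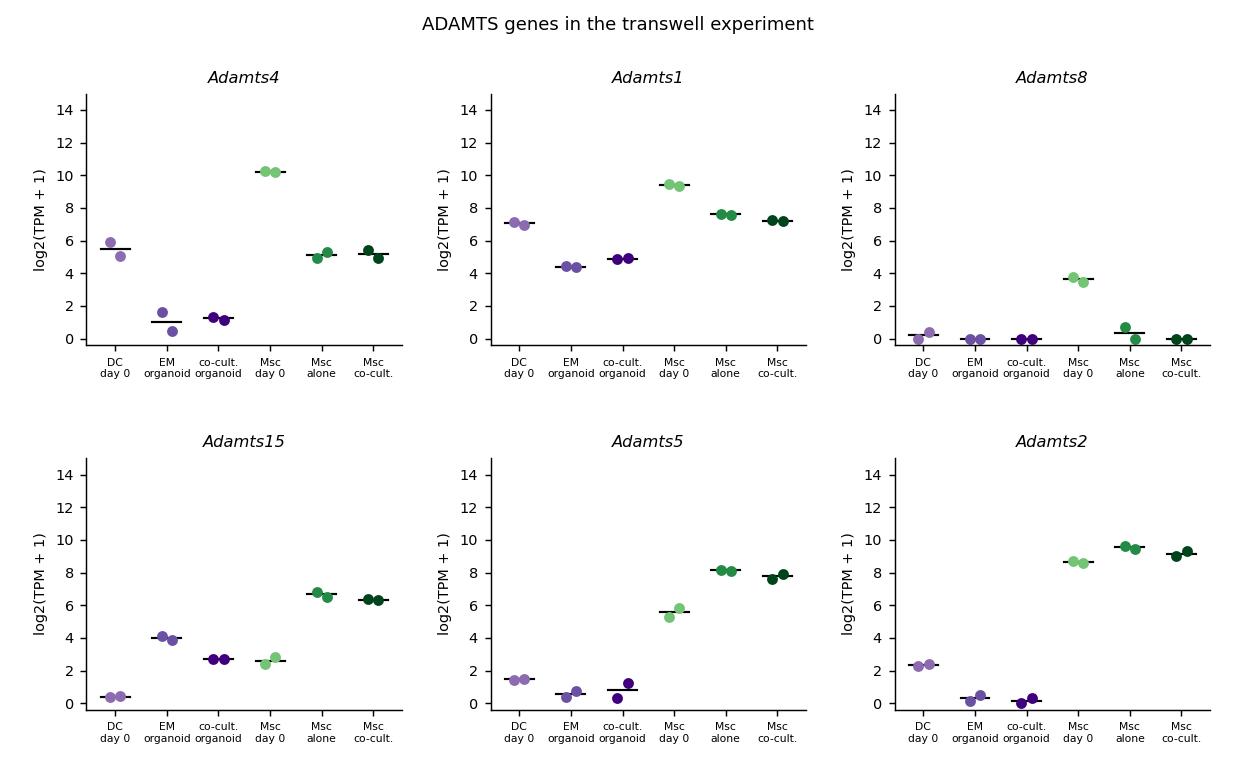
Levels of *Adamts4*, *Adamts1*, *Adamts8*, *Adamts15*, *Adamts5* and *Adamts2* in the 6 transwell groups, as log2(TPM + 1). Each point is 1 library and each bar the mean of the 2 libraries. *Adamts4*, *Adamts1* and *Adamts8* are highest in SCA1+Msc at day 0, whereas *Adamts15* and *Adamts5* are highest in cultured SCA1+Msc and *Adamts2* is high in the 6 SCA1+Msc libraries.

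Between SCA1+Msc in co-culture and alone, 1 of 43 members was called, *Adamts13*, where 0.127% of all genes were (0.0937% higher and 0.0331% lower). *Adamts13* stood at 16.1 and 12.4 at day 0, at 7.20 and 7.14 in SCA1+Msc cultured alone and at 0.738 and 0.872 in co-culture, 3 groups without overlap. The difference of co-culture from alone was -2.18 (SE 0.29, adjusted p = 0.0382). This call was lost with a pseudocount of 0.1 (adjusted p = 0.141), with the replicate number as a block (adjusted p = 0.0898) and without any 1 of the 4 libraries (adjusted p 0.0769 to 0.225). By limma, 4 members had an unadjusted p under 0.05, the others being *Timp1* (1.01, SE 0.24, adjusted p = 0.237), *Timp3* (-0.54, SE 0.19, adjusted p = 0.561) and *Adamts1* (-0.39, SE 0.11, adjusted p = 0.4). *Mmp3* overlapped between the cultures, and its difference was 0.16 (SE 0.45). *Timp3* stood at 362 and 296 alone and at 220.1 and 231 in co-culture.

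The change from day 0 to the end of co-culture differed between SCA1+Msc and DCs in 20 of 43 members. Of these, 11 had a larger and 9 a smaller log2 change in SCA1+Msc, where 28.3% of all genes differed (14.5% and 13.8%). For DCs this change spans 15 days, and for SCA1+Msc also the expansion on plastic before the DCs were added. Time and substrate in culture thus differ with the cell type and cannot be told apart from it. With RPKM as deposited, 9 were larger and 12 smaller. *Mmp7* (-6.06, SE 1.31, adjusted p = 0.00789) and *Mmp13* (-4.86, SE 1.14, adjusted p = 0.0118) rose in organoids and were not called in SCA1+Msc, whereas *Mmp3* (4.75, SE 0.63, adjusted p = 6.5e-04), *Mmp10* (4.58, SE 1.06, adjusted p = 0.0109) and *Timp1* (2.81, SE 0.34, adjusted p = 3.8e-04) rose in SCA1+Msc and were not called in organoids. With a pseudocount of 0.1 the differences of *Mmp7* (-6.84, adjusted p = 0.0821) and *Mmp10* (5.90, adjusted p = 0.0506) were not called. *Adamts4* and *Adamts1* fell in both cell types, and no difference between their changes was called. *Adamts15* rose in both, by more in SCA1+Msc (1.43, SE 0.32, adjusted p = 0.00871).

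**Figure D5:**
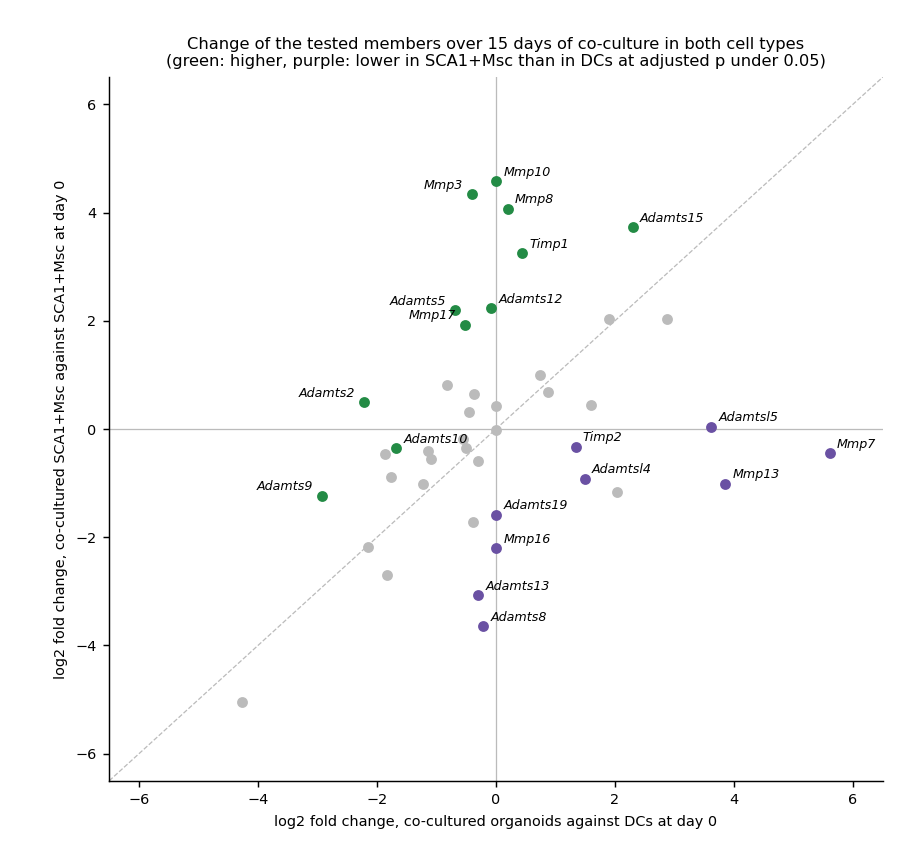
Log2 fold change of the 43 tested members in co-cultured organoids against DCs at day 0 (horizontal axis) and in co-cultured SCA1+Msc against SCA1+Msc at day 0 (vertical axis), 2 libraries per group. The vertical change also includes the expansion of SCA1+Msc on plastic before the 15 days with DCs. The dashed line marks equal change, and green and purple points changed more upward or more downward in SCA1+Msc than in DCs at an adjusted p under 0.05. *Mmp7* and *Mmp13* lie to the right of the line with purple points, *Mmp3*, *Mmp10*, *Mmp8* and *Timp1* lie above it with green points, and the grey point at the lower left is *Adamts4*.

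Of the 25 tested activators, inhibitors and sheddases, 15 were higher and 4 lower in SCA1+Msc than in DCs at day 0 (21.4% and 24.7% of all genes). In EM organoids 5 were higher and 8 lower than in DCs, where 44.4% of all genes differed (27.1% higher and 17.2% lower). In co-cultured organoids 8 were higher and 6 lower, where 42.3% of all genes differed (23.2% and 19.1%). Between the organoids 9 were higher and 1 lower in co-culture (5.73% and 7.21% of all genes). *Plat*, the tissue plasminogen activator, averaged 349 ± 17.9 TPM (SD, n = 2) in DCs at day 0, 18.9 ± 0.532 in EM organoids and 164 ± 34.7 in co-cultured organoids, a difference between organoids of 3.03 (SE 0.14, adjusted p = 2.8e-06 by limma). *Plaur* fell from 3306 ± 77.5 to 107 ± 9.04 and 281 ± 40.1. *Bsg*, a surface glycoprotein known to induce MMPs, rose from 516 ± 61.8 to 3013 ± 268.5 and 3450 ± 403. In SCA1+Msc 9 were higher and 8 lower than at day 0 in either culture. Of all genes, 27.4% were higher and 17.5% lower alone, and 26.0% and 17.3% in co-culture. Between the cultures 0 of 25 were called by limma (0.127% of all genes). *A2m*, a plasma protease trap that also binds MMPs, was at 0 at day 0 and averaged 49.0 ± 4.73 alone and 48.9 ± 1.02 in co-culture. *Plg*, the precursor of plasmin and a hepatocyte gene, went from 153 ± 35.9 to 0 alone, beside the hepatocyte markers, which went from 22124 and 17612 to 54.2 and 38.0, and their part was not tested. For the change from day 0 to the end of co-culture, 4 differed upward and 5 downward in SCA1+Msc against DCs (14.5% and 13.8% of all genes).

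The filter on low values removed 13 of the 51 members from the homeostasis fit and 8 from the transwell fit. In homeostasis 7 stayed under 1 in every library, which were *Mmp1a*, *Mmp1b*, *Mmp8*, *Mmp20*, *Mmp24*, *Adamts18* and *Adamts20*, and in the transwell experiment 4 did, *Mmp1b*, *Timp4*, *Adamts18* and *Adamts20*. For these genes no difference was detectable at this depth.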

How the data were processed

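RNA-seq values that the authors deposited were used. Per the labels and methods, the authors made Smart-seq2 libraries, aligned single reads to GRCm38 with STAR 2.5.0a and counted exons with featureCounts (1.6.0 for the transwell libraries). The transwell table holds deposited RPKM, scaled here to TPM. The homeostasis values are deposited as TPM but are a signal in other units, since the authors' totals run through the 12 libraries down the rows (leading eigenvalue 1.00000), which replaces the TPM assumed for the tests. Samples were grouped by their labels, and 4 columns of means and the authors' comparisons were not used.

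limma 3.58.1 (R 4.3.3) was run on log2(value + 1) of the genes that reached 1 in 3 homeostasis or 2 transwell samples, with group means, trended eBayes, two-sided tests and Benjamini-Hochberg adjustment over all genes tested. Named with tests were up to 8 members per comparison with the largest called change, plus those that share a role or the cluster with them. The members and lists were chosen with earlier results of these data known. Same-lettered homeostasis samples come from 1 mouse (correlation of deviations 0.0102 to 0.0973), so the mouse served as a block in an alternative fit. Depth was recovered from GENCODE M21 exon lengths, which gave whole reads for 92.9% and 93.0% of low values (up to 20 reads, tolerance 0.02). Floors of 3 reads cover counting error only, and no read counts were derived for *Adamts6*, *Adamts12*, *Mmp19* and *Mmp25*. A bound against the floor divides the mean of the other group by the mean floor, so a single library can lie below it. Alternatives were another pseudocount, filter, normalization, unit, fit or set of samples.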

Additional observations from a re-analysis of the deposited data

Results flagged for a closer look

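The change from day 0 to the end of co-culture differed between SCA1+Msc and DCs, by the test of the difference itself, in 20 members (limma, adjusted p under 0.05, log2 change of SCA1+Msc minus that of DCs, 2 libraries per group). The change of SCA1+Msc includes their expansion on plastic before the 15 days with DCs. Among MMPs the difference was 4.75 for *Mmp3*, 4.58 for *Mmp10*, 3.87 for *Mmp8* and 2.46 for *Mmp17*, and it was -6.06 for *Mmp7*, -4.86 for *Mmp13* and -2.20 for *Mmp16*. Among inhibitors it was 2.81 for *Timp1* and -1.68 for *Timp2*. Among ADAMTS genes it was 2.88 for *Adamts5*, 2.72 for *Adamts2*, 2.32 for *Adamts12*, 1.69 for *Adamts9*, 1.43 for *Adamts15* and 1.33 for *Adamts10*, and -3.43 for *Adamts8*, -2.76 for *Adamts13* and -1.58 for *Adamts19*. Among ADAMTS-like genes it was -3.58 for *Adamtsl5* and -2.41 for *Adamtsl4*. For *Adamts9*, *Adamts2* and *Adamts10* the fall in organoids started from values under 10 TPM in DCs at day 0. *Mmp16* and *Adamts19* were at 0 in DCs at day 0, so a fall could not show in that cell type. Their negative differences thus cannot tell whether the 2 cell types responded differently. With RPKM as deposited the differences of *Adamts9* (0.66, adjusted p = 0.198 by limma) and *Adamts10* (0.66, adjusted p = 0.1 by limma) were not called, and with a pseudocount of 0.1 neither were those of *Mmp7* (adjusted p = 0.0821 by limma) and *Mmp10* (adjusted p = 0.0506 by limma). The difference for *Mmp8* was lost under 4 alternatives that changed the fit or scale and without any 1 library of DCs at day 0 or of either co-cultured group.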

How the results depend on the processing

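Counts of called members stayed within 1.5 times under the 8 alternatives of the fit in 12 of 13 comparisons, and between SCA1+Msc in co-culture and alone 1 became 0 with a pseudocount of 0.1, with the replicate block and with only the groups compared. Leaving out 1 library gave 0 to 1 between the PDGFRa+ populations, 13 to 16 for EM organoids against DCs (13 without the second library of either), 6 to 8 between the organoids (6 without either EM library) and 0 to 0 for SCA1+Msc in co-culture against alone. The cause was not tested. Of 239 member calls, 231 were kept under quantile normalization, 7 were lost and 1 was reversed (*Timp2* in co-cultured SCA1+Msc, -0.33 to 0.02). Quantile normalization moved the median of all genes from -0.28 to -0.10 for PDGFRa+SCA1+ and from -0.47 to -0.13 for PDGFRa+SCA1- cells against DCs, from 0.15 to 0.01 and from 0.25 to 0.04 for PDGFRa+SCA1+ against PDGFRa+SCA1- cells and PDGFRa-SCA1+ against PDGFRa+SCA1+ cells, from 0.12 to 0.00 for EM organoids against DCs and from -0.13 to -0.01 between organoids. Undoing the reuse of totals kept 86 of 87 homeostasis calls, and with deposited RPKM 134 of 152 transwell calls were kept, 7 were lost and 11 were not tested. Transwell samples share only a number (correlation of deviations 0.00428 to 0.0295). With that number as a replicate block, 5 transwell calls were lost, those of *Mmp3* in EM organoids (adjusted p = 0.062), *Mmp27* in SCA1+Msc alone (adjusted p = 0.054), *Adamts7*, *Adamts13* and *Mmp8* (adjusted p = 0.0511, 0.0898 and 0.056). The mouse block changed no homeostasis call other than the 3 given above. With 2 or 3 libraries per group, differences in members near the floor of 3 reads were not detectable.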
